A study of Mus musculus with 8 samples.

Results

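The 8 genes described here handle cholesterol: Hmgcs1, Idi1 and Sqle encode enzymes of its synthesis, Srebf2 and Insig1 regulate that synthesis, Stard4 carries sterol inside the cell, and Abca1 and Abcg1 export it. They were taken by symbol, and each matched 1 Ensembl identifier among the 54446 gene rows of the tables. The libraries come from a study of eosinophils sorted in a murine asthma model, made by CEL-Seq, which counts reads near the 3' ends of transcripts. They form 3 groups, all of eosinophils from C57BL/6 mice named in the labels by surface markers, SiglecFhi/CD101+ (n = 2) and Siglec-Fint/CD101- (n = 2), or only as resident (n = 4, replicates 3 to 6). Siglec-F is a lectin that mouse eosinophils and alveolar macrophages carry, and CD101 a transmembrane protein used to tell eosinophil subsets apart; the labels name no treatment, age, sex or animal for any library.

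Cells make cholesterol from acetyl-CoA through the mevalonate route, in which Hmgcs1 acts early, Idi1 isomerises the isoprenoid unit and Sqle oxidises squalene. When membrane sterol is low, SCAP escorts the SREBP-2 protein encoded by Srebf2 to the Golgi, where proteases free its transcription factor part to switch on the synthesis genes and genes of lipoprotein uptake; INSIG1 holds this complex back when sterol is plentiful. When sterol is in excess, liver X receptors (LXR) switch on Abca1 and Abcg1, and in lung macrophages ABCG1 is known to be needed to clear surfactant lipid. The intron of Srebf2 also hosts miR-33, a known repressor of Abca1, which libraries of this kind do not measure.

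Subset libraries were shallow, and this limits every value below. Counts outside the mitochondrial genome were 552121 and 444902 in SiglecFhi/CD101+ libraries, 456930 and 481468 in Siglec-Fint/CD101- libraries and 2137819 to 5296468 in resident libraries; the mitochondrial share of counts was 70.6% to 82.2% in SiglecFhi/CD101+, 69.9% to 83.9% in Siglec-Fint/CD101- and 38.6% to 61.8% in resident libraries. The floor of 3 counts per library equals 1.59 and 1.83 CPM (counts scaled to TMM-adjusted library size) in SiglecFhi/CD101+, 2.18 and 1.86 CPM in Siglec-Fint/CD101- and 0.199 to 0.501 CPM in resident libraries. Pooled over the libraries of each group, 6 of the 10 eosinophil markers examined had a count in SiglecFhi/CD101+, 6 in Siglec-Fint/CD101- and 10 in the resident group. Their summed levels were 108 to 393 CPM in SiglecFhi/CD101+, 158 to 250 CPM in Siglec-Fint/CD101- and 181 to 436 CPM in the resident group, and these ranges overlapped. Epx and Il5ra had no count in either subset and Siglecf, the gene of Siglec-F, had none in Siglec-Fint/CD101-. In the shallow subset libraries the labelled cell type therefore rests on only part of its defining genes. Airway, surfactant and collagen genes were present in all groups. Alveolar markers summed to 2591 to 3824 CPM in SiglecFhi/CD101+, 3086 to 3337 CPM in Siglec-Fint/CD101- and 594 to 6260 CPM in resident libraries. Fibroblast markers summed to 633 to 789, 453 to 523 and 74.0 to 663 CPM in the same order. Those of the airway summed to 1720 to 2458, 1760 to 4840 and 518 to 7878 CPM. Resident replicate 5 held the highest alveolar sum. The other resident libraries lay below every subset library for alveolar and fibroblast markers. Marker sums of other immune cells differed by group: neutrophil markers summed to 292 to 1098 CPM in SiglecFhi/CD101+, 592 to 1524 CPM in Siglec-Fint/CD101- and 142 to 496 CPM in resident libraries. B and plasma cell markers summed to 188 to 347, 209 to 364 and 74.5 to 186 CPM, and T and NK cell markers to 74.4 to 299, 15.5 to 135 and 13.3 to 56.0 CPM, in the same order; their part in the results was not tested. In bulk RNA of this kind, fewer cells of a type and less RNA per cell cannot be told apart, and no label ties a replicate to an animal, so tests measure only the spread between these samples.

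None of the 8 genes passed the test in any comparison. Some of them had no count in 1 subset: Stard4 in SiglecFhi/CD101+, Hmgcs1 and Abca1 in Siglec-Fint/CD101-. Sqle and Abcg1 were lower in all 4 subset libraries than in all 4 resident libraries, as were 12.0% of all genes tested. For Sqle the lowest resident level, 1.49 CPM, lay under the floor of every subset library. Genes were tested with edgeR's quasi-likelihood test over 11828 genes, Benjamini-Hochberg adjusted, with a threshold of 0.05.

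The promoters of Hmgcs1 and Abca1 are shown because these are the members without a count in Siglec-Fint/CD101-, and because they stand for the opposite arms of sterol control. RefSeq windows from 250 bases before to 50 after the gene start (GRCm38.p6) were found for 5 of the 8 members: Hmgcs1 (chr13:119690101-119690400, plus strand), Idi1, Insig1, Srebf2 and Abca1 (chr4:53159846-53160145, minus strand). Capitals mark the core of the sterol regulatory element to which SREBP proteins bind, TCACCCCAC, searched on both strands.
Hmgcs1: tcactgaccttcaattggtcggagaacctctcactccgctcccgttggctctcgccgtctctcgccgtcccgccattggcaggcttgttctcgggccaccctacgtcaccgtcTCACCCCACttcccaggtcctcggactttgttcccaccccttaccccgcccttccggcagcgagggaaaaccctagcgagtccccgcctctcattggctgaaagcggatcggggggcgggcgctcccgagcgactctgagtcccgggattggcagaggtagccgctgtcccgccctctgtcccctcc
Abca1: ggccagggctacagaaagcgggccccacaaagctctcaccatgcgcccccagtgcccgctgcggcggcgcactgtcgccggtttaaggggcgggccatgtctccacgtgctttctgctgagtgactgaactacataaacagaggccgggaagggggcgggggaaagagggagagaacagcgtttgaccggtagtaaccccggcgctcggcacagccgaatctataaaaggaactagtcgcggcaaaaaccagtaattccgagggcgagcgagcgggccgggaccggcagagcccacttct

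The Hmgcs1 window held the core once, at -137 to -129 from the start, and the other 4 windows did not hold it; among all 32851 promoter windows of this length 0.551% did. Allowing any base at the fifth place (TCACNCCAC) added no match in the 5 windows and gave a share of 1.24% over all windows. CCAAT, the box of NF-Y, a factor that works with SREBP proteins, occurred 4 times for Hmgcs1, 2 times for Idi1, once each for Insig1 and Srebf2 and 0 times for Abca1, against a share of 37.4% of all windows with at least 1. GGGCGG, the box of Sp1, occurred in all 5 windows and in 35.7% of all windows. The motifs do not overlap one another in the Hmgcs1 window as printed, and a match is only a run of letters.

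Among the synthesis enzymes, Hmgcs1 (ENSMUSG00000093930; chromosome 13, 119690379 to 119708260, GRCm38 in GENCODE M21), which makes HMG-CoA, had 21 counts (11.1 CPM) and 0 counts in the SiglecFhi/CD101+ libraries. Neither Siglec-Fint/CD101- library had a count. The resident libraries had 2.84, 12.2, 16.6 and 10.6 CPM in replicates 3 to 6, so they overlapped the SiglecFhi/CD101+ libraries and lay above both Siglec-Fint/CD101- libraries. Against the floor of 3 counts over the group, Siglec-Fint/CD101- was at least 11.8-fold lower than resident (adjusted p = 0.293; at least 5.42-fold to 13.1-fold with 1 library left out). Bounds of this kind, here and below, cover counting error only and not the spread between libraries. SiglecFhi/CD101+ against resident gave -0.92 ± 1.76 on the log2 scale, the error being the SE (adjusted p = 0.835). That value was -0.02 without SiglecFhi/CD101+ replicate 2, and without replicate 1 the group was at 0 and at least 6.47-fold lower. SiglecFhi/CD101+ was at least 5.93-fold higher than Siglec-Fint/CD101- (adjusted p = 0.266), from replicate 1 alone: without it both groups are at 0. An annotated antisense gene, Gm48342, overlaps its exons; it had 51 counts over all libraries, and the strand setting of the counting is not given in the sources used here.

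Idi1 (ENSMUSG00000058258; chromosome 13, 8885501 to 8892451), the isopentenyl diphosphate isomerase, was at 0.53 and 4.88 CPM in SiglecFhi/CD101+ libraries, 0 and 4.97 CPM in Siglec-Fint/CD101- libraries, and 23.2, 5.11, 5.40 and 3.32 CPM in resident libraries. The higher library of each subset fell within the resident range, and resident replicate 3 stood apart at the top. The log2 fold changes against resident were -1.78 ± 1.85 in SiglecFhi/CD101+ (adjusted p = 0.650) and -1.87 ± 1.87 in Siglec-Fint/CD101- (adjusted p = 0.614). Without resident replicate 3 they were -0.69 and -0.83. The first was -4.17 without SiglecFhi/CD101+ replicate 2; without Siglec-Fint/CD101- replicate 2 that group was at 0 and at least 3.16-fold lower.

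Sqle (ENSMUSG00000022351; chromosome 15, 59315077 to 59331192), the squalene epoxidase and a rate-limiting step of the later route, had 0 and 2 counts in SiglecFhi/CD101+ libraries and 0 and 1 count in Siglec-Fint/CD101- libraries. The resident libraries had 12, 19, 54 and 136 counts, or 2.01, 1.49, 3.79 and 9.04 CPM, all above the subset libraries, whose highest level was 1.22 CPM. The lowest resident levels were themselves near the floors of the subset libraries. Pooled over libraries, Sqle was lower by a factor of 8.12 in SiglecFhi/CD101+ (exact 95% counting interval 2.22 to 67.4) and of 13.7 in Siglec-Fint/CD101- (2.44 to 545), with adjusted p-values of 0.523 and 0.425 against resident. These intervals cover counting error only. Without resident replicate 6, which holds 136 of the 221 resident counts, the factors were 4.55 and 7.70. The factor was 3.77 without SiglecFhi/CD101+ replicate 1 and 7.41 without Siglec-Fint/CD101- replicate 1; without replicate 2 of either subset it was at least 2.89-fold and at least 2.11-fold.

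Of the regulators, Srebf2 (ENSMUSG00000022463; chromosome 15, 82147181 to 82205379) was the best counted member. It was at 7.95 and 145 CPM in SiglecFhi/CD101+ libraries, at 21.1 and 45.3 CPM in Siglec-Fint/CD101- libraries, and at 94.9, 133, 96.6 and 71.8 CPM in resident libraries. The 2 SiglecFhi/CD101+ libraries thus lay on either side of the whole resident range, while both Siglec-Fint/CD101- libraries lay below it. Against resident (99.0 ± 25.2 CPM, SD, n = 4) the log2 difference was -0.37 ± 0.89 in SiglecFhi/CD101+ (76.5 ± 97.0 CPM, n = 2; adjusted p = 0.872), with the opposite sign under RLE scaling (0.11) and without SiglecFhi/CD101+ replicate 1 (0.47), and -3.73 without replicate 2. In Siglec-Fint/CD101- (33.2 ± 17.1 CPM, n = 2) it was -1.57 ± 0.95 (adjusted p = 0.390), and from -2.25 to -1.18 with 1 library left out.

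Insig1 (ENSMUSG00000045294; chromosome 5, 28071363 to 28078662), itself a target of SREBP-2, was at 7.42 and 5.49 CPM in SiglecFhi/CD101+ libraries, 6.54 and 0 CPM in Siglec-Fint/CD101- libraries, and 5.01, 12.4, 5.75 and 5.85 CPM in resident libraries. The subset libraries with a count lay inside the resident range. The log2 fold change was -0.17 ± 1.59 in SiglecFhi/CD101+ against resident (adjusted p = 0.974; 0.30 under RLE scaling and 0.35 without resident replicate 4) and -1.16 ± 1.70 in Siglec-Fint/CD101- against resident (adjusted p = 0.753). The Siglec-Fint/CD101- value was -0.17 without its replicate 2, and without its replicate 1 the group was at 0 and at least 4.00-fold lower.

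Stard4 (ENSMUSG00000024378; chromosome 18, 33199355 to 33213862), which moves cholesterol between membranes and is also induced by SREBP-2, had the sharpest difference between the subsets. It had 0 counts in both SiglecFhi/CD101+ libraries, 16 and 70 counts (11.6 and 43.5 CPM) in the Siglec-Fint/CD101- libraries and 8.52, 11.2, 19.3 and 11.7 CPM in the resident libraries. All 6 libraries outside SiglecFhi/CD101+ therefore held it, and both Siglec-Fint/CD101- libraries were inside or above the resident range. SiglecFhi/CD101+ was at least 33.9-fold lower than Siglec-Fint/CD101- (adjusted p = 0.205; at least 13.7-fold without Siglec-Fint/CD101- replicate 2) and at least 15.8-fold lower than resident (adjusted p = 0.168; at least 7.34-fold to 16.7-fold with 1 library left out). These bounds cover counting error only, not the spread between libraries. DESeq2 called both differences (adjusted p = 0.000843 and 0.00619), where it called 15.4% and 9.82% of all genes, and limma-voom called neither. Siglec-Fint/CD101- against resident gave 1.12 ± 1.23 (adjusted p = 0.657), with the opposite sign when library totals alone were used (-0.12) or without Siglec-Fint/CD101- replicate 2 (-0.14).

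**Figure D1:**
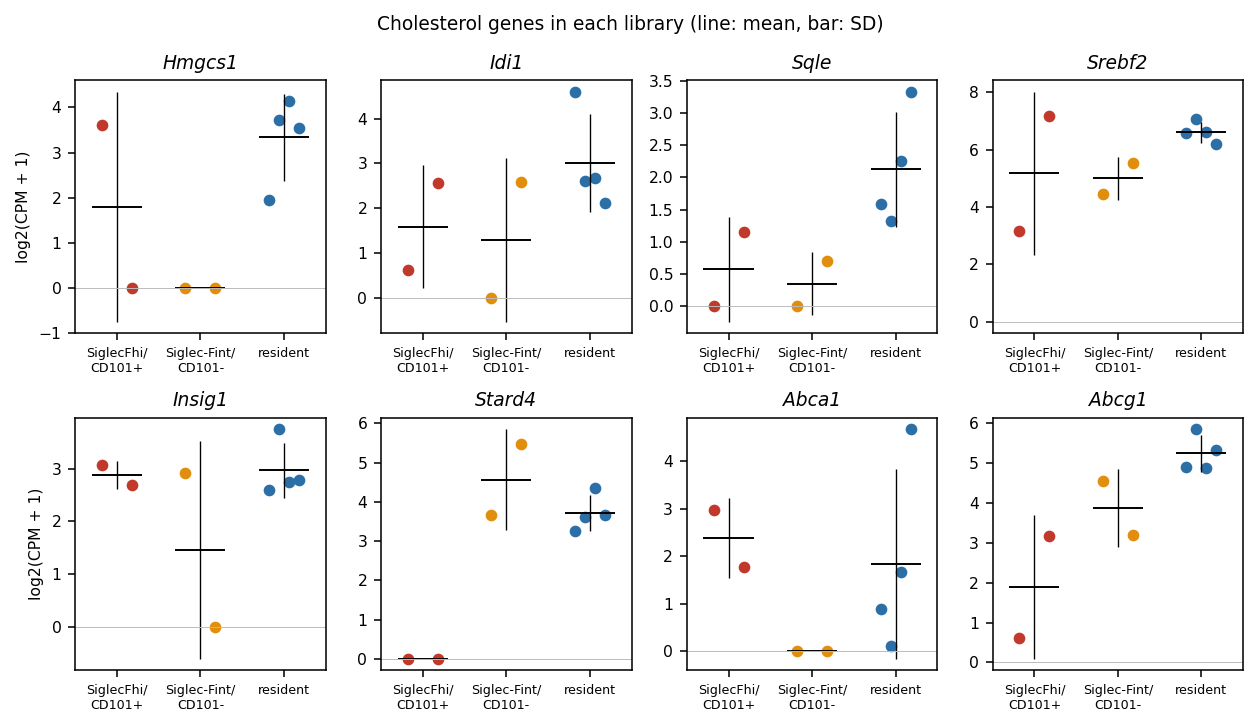
Level of each of the 8 genes as log2(CPM + 1) on the vertical axis, by group on the horizontal axis, with 1 point per library, a line at the mean and a bar for the SD of the logged values (n = 2, 2 and 4). Stard4 is at 0 in both SiglecFhi/CD101+ libraries, Hmgcs1 and Abca1 are at 0 in both Siglec-Fint/CD101- libraries, and the 2 SiglecFhi/CD101+ libraries differ widely for Srebf2 (7.95 and 145 CPM).

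Of the exporters, Abca1 (ENSMUSG00000015243; chromosome 4, 53030787 to 53159895), which loads cholesterol onto apolipoprotein A-I, was at 6.89 and 2.44 CPM in SiglecFhi/CD101+ libraries and had no count in either Siglec-Fint/CD101- library. The resident libraries had 0.836, 0.0786, 2.17 and 24.7 CPM, so 371 of their 408 counts came from replicate 6, and the SiglecFhi/CD101+ libraries exceeded the other 3 resident libraries. The log2 fold change in SiglecFhi/CD101+ against resident, -0.57 ± 1.96 (adjusted p = 0.917), became 2.29 without resident replicate 6 and 1.47 with limma-voom. Siglec-Fint/CD101- was at least 8.46-fold lower than resident (adjusted p = 0.312), a bound that rests on that library: without it the bound is 1.12-fold. SiglecFhi/CD101+ was at least 4.80-fold higher than Siglec-Fint/CD101- (adjusted p = 0.304; at least 2.21-fold to 6.86-fold with 1 library left out), with 17 counts in all.

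Abcg1 (ENSMUSG00000024030; chromosome 17, 31057675 to 31117988), which passes cholesterol to lipoprotein particles, was at 0.53 and 7.93 CPM in SiglecFhi/CD101+ libraries and at 22.5 and 8.07 CPM in Siglec-Fint/CD101- libraries. The resident libraries were at 28.7, 56.5, 28.3 and 39.4 CPM, above every subset library. It averaged 4.23 ± 5.23 CPM in SiglecFhi/CD101+ (n = 2), 15.3 ± 10.2 CPM in Siglec-Fint/CD101- (n = 2) and 38.2 ± 13.2 CPM in resident libraries (SD, n = 4). The log2 fold changes against resident were -3.18 ± 1.36 (adjusted p = 0.267) and -1.32 ± 1.21 (adjusted p = 0.578), and -1.86 ± 1.39 in SiglecFhi/CD101+ against Siglec-Fint/CD101- (adjusted p = 0.480). With 1 library left out they ranged from -6.23 to -2.35, from -2.30 to -0.78 and from -4.88 to -0.98; SiglecFhi/CD101+ replicate 2 and Siglec-Fint/CD101- replicate 1 held most of their group's level. For both subsets together against resident it was -2.25 ± 0.97 (adjusted p = 0.191), from -3.79 to -1.85 with 1 library left out. The summed level of the 10 macrophage markers, all of them with counts in every group, was 156 and 230 CPM in SiglecFhi/CD101+, 688 and 288 CPM in Siglec-Fint/CD101- and 245 to 669 CPM in resident libraries. Within each subset the library with the higher sum also had the higher Abcg1 level in CPM; the part of these cells in the result was not tested.

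For SiglecFhi/CD101+ against resident, all 8 log2 fold changes were below 0 (63.9% of all genes were), and 6 of 8 with RLE scaling. The median of the 8 was -1.35, beside -0.72 over all genes tested; the all-gene median was -1.46 with library totals alone and -0.26 with RLE. Relative to the all-gene median, 5 of the 8 were lower, with Abcg1 at -2.47 and Sqle at -2.02, and Srebf2 (0.34), Insig1 (0.55) and Abca1 (0.14) lay above it. By edgeR 0 of 8 were called, where 0.0254% of all genes were. At an unadjusted p under 0.05, Stard4 and Abcg1 were lower, 2 of 8 beside 13.1% of all genes in that direction. Stard4, Sqle and Abcg1 did not overlap resident in CPM, 3 of 8, where 27.4% of all genes were lower without overlap; for Sqle the lowest resident level lay under both SiglecFhi/CD101+ floors. DESeq2 called Stard4 alone (9.82% of genes called in either direction), and limma-voom called 0 of 8 (0.0169%).

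For Siglec-Fint/CD101- against resident, 7 of 8 were below 0, Stard4 being the exception (66.9% of all genes were below 0), and all 8 with library totals alone. Their median was -1.72, beside -0.997 for all genes (-1.96 with library totals alone, -0.63 with RLE). Relative to the all-gene median, Srebf2 stood at -0.58, Abcg1 at -0.33, Insig1 at -0.16 and Idi1 at -0.87, and Stard4 at 2.11. By edgeR 0 of 8 were called (0.0592% of all genes), by DESeq2 0 of 8 (8.27%) and by limma-voom 0 of 8 (0.0169%). Hmgcs1 and Abca1 had an unadjusted p under 0.05, 2 of 8 beside 13.8% of genes. Hmgcs1, Sqle, Srebf2, Abca1 and Abcg1 were lower without overlap, 5 of 8, where 29.3% of all genes were. For Sqle and Abca1 some resident levels lay under the Siglec-Fint/CD101- floors, so that separation is not readable at this depth.

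Between the subsets, SiglecFhi/CD101+ against Siglec-Fint/CD101-, the members split: Stard4 and Abcg1 were lower without overlap (2 of 8; 11.9% of all genes) and Abca1 was higher without overlap (1 of 8; 15.8%). For Abcg1 that separation is narrow: replicate 2 of SiglecFhi/CD101+ was at 7.93 CPM and replicate 2 of Siglec-Fint/CD101- at 8.07 CPM, from 13 counts each. Stard4 was lower and Hmgcs1 higher at an unadjusted p under 0.05, where 7.96% and 9.98% of all genes were. By edgeR 0 of 8 were called (0.00845% of all genes), by limma-voom 0 of 8 (0.00%), and by DESeq2 Stard4 alone (15.4%). Srebf2 differed by a log2 fold change of 1.20 ± 1.03 (adjusted p = 0.557), with the sign set by SiglecFhi/CD101+ replicate 2 (-2.12 without it). Sqle had 2 and 1 counts and allows no comparison.

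With both subsets set together against resident, all 8 log2 fold changes were below 0 in every setting that gave a value (75.4% of all genes were), but for Stard4, Hmgcs1 and Abca1 this averages over a subset without counts. Setting those groups to 3 counts gave a median of -1.82, beside -0.74 over all genes treated likewise, in place of the fitted -2.71 and -1.28. By edgeR 0 of 8 were called (0.0254% of all genes), by DESeq2 0 of 8 (9.93%) and by limma-voom 0 of 8 (0.00845%). Stard4, Hmgcs1 and Abcg1 were lower at an unadjusted p under 0.05, 3 of 8 beside 21.0% of genes, and Sqle and Abcg1 were lower without overlap, 2 of 8 beside 12.0%. These comparisons share the 4 resident libraries, so they are not independent of each other.

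**Figure D2:**
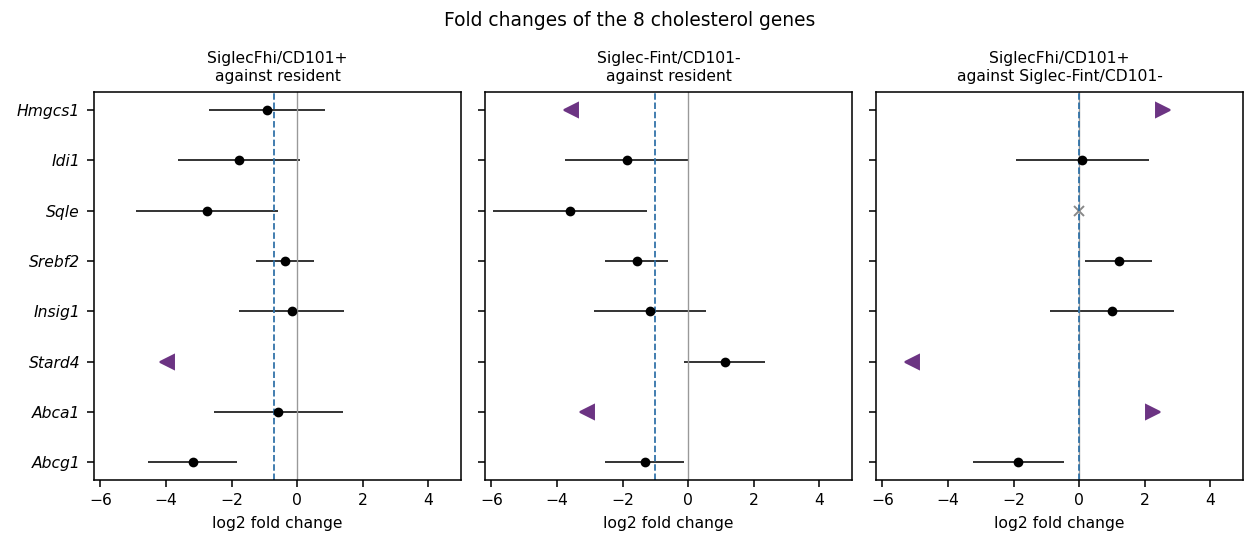
Log2 fold change (horizontal axis) of the 8 genes in 3 comparisons. Points carry the SE as a bar, and the dashed line is the median of all genes tested. Triangles are bounds for a group without counts set to 3 counts over the group, pointing away from 0. They cover counting error only, not the spread between libraries. The cross marks Sqle with too few counts to compare. The dashed line is at -0.72, -0.997 and 0. Most bars against resident cross it, and with all 8 libraries the bounds of Stard4, Hmgcs1 and Abca1 do not reach it. Without resident replicate 6 the Abca1 bound in Siglec-Fint/CD101- against resident is 1.12-fold. Hmgcs1 has no bound between the subsets without SiglecFhi/CD101+ replicate 1.

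The rest of the pathway was read from 5 lists of 55 genes in all, members included, of which 53 were tested; Fdps and Msr1 were too low. Fdps, the farnesyl diphosphate synthase, was listed at 0 in all 8 libraries, and its exons overlap a second annotated gene on the same strand, Gm43738, also at 0. By edgeR 0 of the 53 passed in any comparison. Adjusted p-values of single pathway genes below are from edgeR for both subsets against resident, unless another comparison is named. DESeq2 called Lipa, Stard4, Stard5 and Gramd1a in SiglecFhi/CD101+ against resident, 4 of 53 beside 9.82% of all genes. It called Mvd and Mbtps1 in Siglec-Fint/CD101- against resident, 2 of 53 beside 8.27%. Between the subsets it called Lipa, Stard4 and Gramd1a, 3 of 53 beside 15.4%. For both subsets it called Mvd and Stard5, 2 of 53 beside 9.93%. With library totals alone edgeR called 3 for both subsets: Mvd, Mbtps1 and Stard5. In that setting 758 of 11828 genes were called lower and 15 higher. For both subsets against resident, 11 of 53 were lower at an unadjusted p under 0.05, beside 21.0% of all genes. Of the 53, 40 lay below 0, beside 75.4%, with a median of -0.97 beside -1.28 for all genes.

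Of the 20 tested synthesis enzymes, 16 lay below 0 for both subsets against resident (median -1.77), beside the same 75.4%. Mvd, Sqle and Cyp51 were lower without overlap for both subsets, 3 of the 20 beside 12.0% of all genes. Mvd, which makes isopentenyl diphosphate, came closest to the threshold (adjusted p = 0.106): it was at 0.53 and 1.83 CPM in SiglecFhi/CD101+ libraries, had no count in either Siglec-Fint/CD101- library and was at 8.52, 22.2, 11.8 and 14.2 CPM in resident libraries, with no overlap. Pmvk, the kinase before it, had counts in 1 subset library alone (10.2 CPM in Siglec-Fint/CD101- replicate 1) and was at 4.34 to 12.6 CPM in resident libraries (adjusted p = 0.189). Fdft1, the squalene synthase, likewise had counts in SiglecFhi/CD101+ replicate 1 alone (13.8 CPM) and was at 6.45 to 17.7 CPM in resident libraries (adjusted p = 0.186); its exons overlap Ctsb, an abundant gene on the opposite strand. Tm7sf2, a sterol reductase, had counts in resident replicates 4 and 5 alone.

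Among the 7 genes of sterol sensing, all 7 lay below 0 in Siglec-Fint/CD101- against resident (median -1.57, beside 66.9% of all genes below 0), and 5 of 7 in SiglecFhi/CD101+ against resident (median -0.22, above the all-gene median of -0.72, with 63.9% of all genes below 0). Mbtps1, the site-1 protease that cuts SREBP-2, was at 11.1 and 0.61 CPM in SiglecFhi/CD101+, 0 and 1.24 CPM in Siglec-Fint/CD101- and 12.2 to 36.5 CPM in the resident group, without overlap (both subsets against resident -3.36 ± 1.33, adjusted p = 0.166). For both subsets it was the 1 gene of the 7 lower without overlap, beside 12.0% of all genes. Scap, the escort of SREBP-2, was at 0.53 and 14.6 CPM, 2.18 and 4.35 CPM, and 6.02 to 13.3 CPM in the same order of groups (adjusted p = 0.736). Insig2, the second INSIG protein, had a count in SiglecFhi/CD101+ replicate 2 alone among the subsets (adjusted p = 0.266), and Mbtps2, the site-2 protease, gave an adjusted p of 0.801.

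Among uptake genes, Lipa, the lysosomal acid lipase that frees cholesterol from lipoprotein esters, was at 5.30 and 0.61 CPM in SiglecFhi/CD101+, 128 and 71.4 CPM in Siglec-Fint/CD101- and 20.4 to 50.5 CPM in resident libraries, lowest in SiglecFhi/CD101+, with a log2 fold change of -5.05 ± 1.25 between the subsets (adjusted p = 0.176). Lrp1, an endocytic lipoprotein receptor, was at 0 and 15.9 CPM in SiglecFhi/CD101+, 8.0 and 0.62 CPM in Siglec-Fint/CD101- and 31.3 to 57.3 CPM in resident libraries, without overlap with resident (both subsets against resident -3.04 ± 1.17, adjusted p = 0.160). Of the 7 uptake genes tested, this 1 was lower without overlap for both subsets, beside 12.0% of all genes. Cd36, a fatty acid and scavenger receptor, was at 94.4 and 117 CPM, 77.8 and 132 CPM, and 32.9 to 84.1 CPM in the same order of groups (0.95 ± 0.55, adjusted p = 0.304). Npc2, which lifts cholesterol out of the lysosome, was at 199 and 102 CPM in SiglecFhi/CD101+, 184 and 333 CPM in Siglec-Fint/CD101- and 96.6 to 190.3 CPM in resident libraries. Its ranges overlapped, and both subsets against resident gave 0.49 ± 0.44 (adjusted p = 0.534), or -0.48 with library totals alone.

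In the efflux list, the edgeR adjusted p-values are for both subsets against resident, which for Rxra and Nr1h3 averages over a subset without counts. Rxra, the partner of LXR, had 0 counts in both SiglecFhi/CD101+ libraries. It was at 5.82 and 0.62 CPM in Siglec-Fint/CD101- and 0.33 to 13.7 CPM in resident libraries (adjusted p = 0.194). Nr1h3, LXR alpha, was at 1.06 and 14.0 CPM in SiglecFhi/CD101+ and had 0 counts in Siglec-Fint/CD101-. In resident libraries it was at 2.28 to 17.7 CPM (adjusted p = 0.243). Abca1 and the synthesis enzyme Mvd had the same presence and absence, but Mvd had only 1 and 3 counts in the SiglecFhi/CD101+ libraries. Nr1h3 had 2 and 23 counts there, so some of these levels did not exceed the floor of 3 counts. Between the subsets, 15.8% of all genes were higher in SiglecFhi/CD101+ without overlap. Apoe, an LXR target and lipoprotein of macrophages, was at 125 and 178 CPM, 450 and 107 CPM, and 126 to 168 CPM (adjusted p = 0.593), and Ncor1, a corepressor, gave an adjusted p of 0.408.

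Of the transport and storage genes, Stard5, a relative of Stard4, had 0 counts in both SiglecFhi/CD101+ libraries, 1.45 and 0.62 CPM in Siglec-Fint/CD101- and 1.00 to 26.4 CPM in resident libraries (adjusted p = 0.107); its exons overlap Il16 on the opposite strand. Gramd1a, a sterol carrier from the plasma membrane, was at 1.06 and 0 CPM in SiglecFhi/CD101+ libraries. It was at 12.4 and 28.6 CPM in Siglec-Fint/CD101- and 7.15 to 24.7 CPM in resident libraries, so it was low in SiglecFhi/CD101+ alone. Its relative Gramd1b was at 3.18 and 18.9, 0.73 and 0.62, and 1.89 to 29.6 CPM (adjusted p = 0.222 and 0.256 for both subsets against resident). Between the subsets, 7 of 53 pathway genes were lower in SiglecFhi/CD101+ without overlap, beside 11.9% of all genes. In the other direction 6 of 53 were higher, beside 15.8%. Plin2, which coats lipid droplets, was at 81.1 and 58.5 CPM, 124 and 24.2 CPM, and 95.2 to 163 CPM (adjusted p = 0.436), in the same order of groups. Soat1, which esterifies cholesterol for storage, was at 14.8 and 9.76 CPM, 18.2 and 3.10 CPM, and 2.84 to 19.9 CPM (0.04 ± 1.12, adjusted p = 0.989), with a sign that changed with library totals alone (-0.79), limma-voom (-0.058) and no filter (-0.025).

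**Figure D3:**
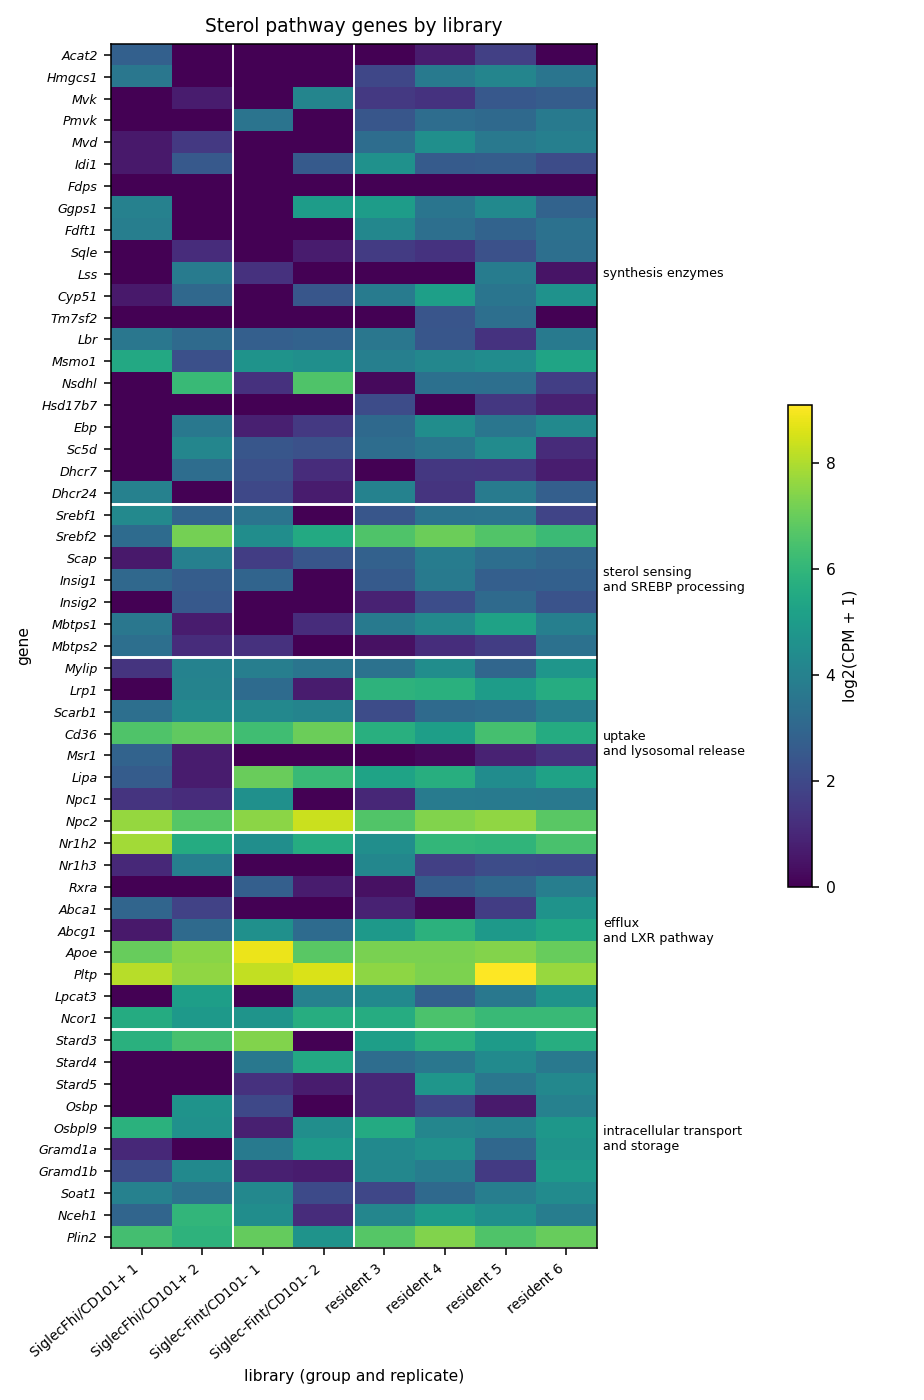
Heat map of log2(CPM + 1) for the genes of the 5 pathway lists (rows, grouped by list) in the 8 libraries (columns, named by group and replicate). The darkest cells are at 0: among others, Stard4, Stard5 and Rxra are there in both SiglecFhi/CD101+ libraries, and Hmgcs1, Mvd, Fdft1, Abca1 and Nr1h3 in both Siglec-Fint/CD101- libraries.

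Profiles over the 8 libraries were also compared across 5910 better-expressed genes. The mean standardised log2 CPM of Stard4, Hmgcs1, Sqle, Idi1, Insig1 and Srebf2 was most like Gpr35 (Pearson r = 0.98), Slk (0.98), Samd9l (0.98), Prkcsh (0.97) and Foxp4 (0.97). That of Abca1 and Abcg1 was most like Gpr107 (0.92), Pacsin2 (0.86), Pros1 (0.86), Wdr26 (0.86) and Atf4 (0.85). These are descriptions over points that share group and depth: the first profile correlated at 0.93, and the second at 0.79, with the log2 of counts outside the mitochondrial genome.

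**Figure D4:**
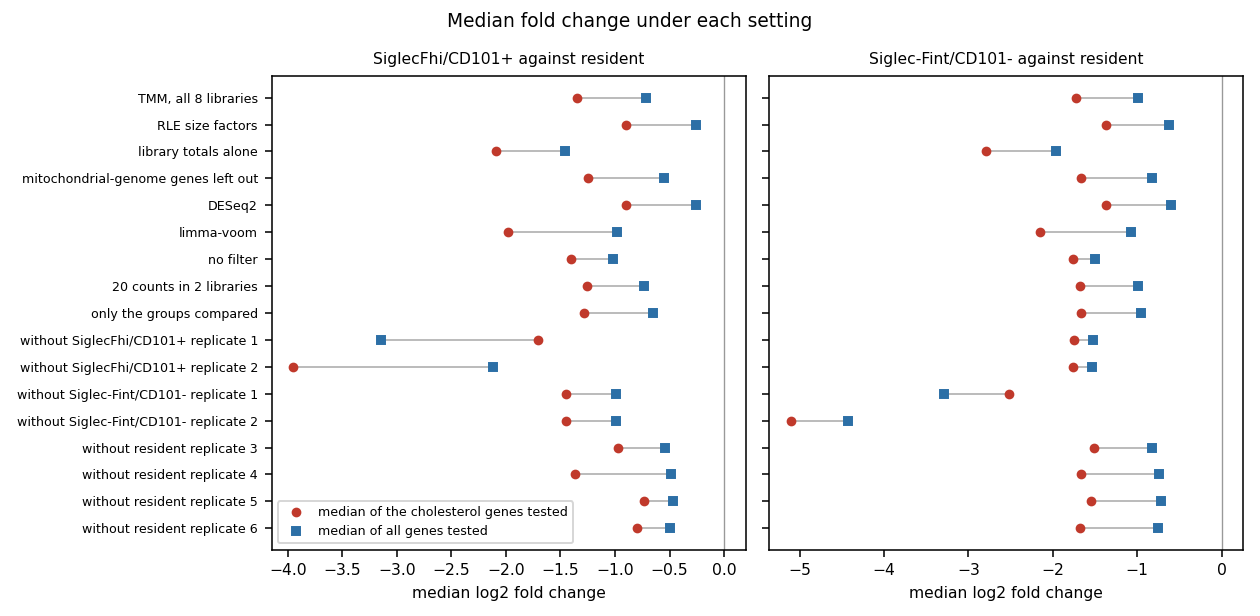
Median log2 fold change (horizontal axis) of the cholesterol genes tested (circles) and of all genes tested (squares) under each processing setting (vertical axis), for each subset against resident. The circle lies left of the square in all settings but 1 in each panel: without SiglecFhi/CD101+ replicate 1 (-1.71 and -3.15) and without Siglec-Fint/CD101- replicate 1 (-2.52 and -3.29).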

How the data were processed

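For each of the 8 libraries the authors deposited raw counts by Ensembl identifier, whole numbers with unequal totals. Per the submitters' processing notes, FastQC 0.11.5, Trim Galore, cutadapt 1.10, TopHat2 2.1.0, Bowtie2 2.2.6, HTSeq 0.6.1 and DESeq2 1.28.0 were used; settings, build, annotation, strand and treatment of molecular identifiers were not given in the sources used here. Counts may therefore be reads or molecules; reads carry amplification spread.

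Symbols came from GENCODE M21 by Ensembl identifier (54409 of 54446 rows matched), and promoter sequences from RefSeq on GRCm38.p6. Groups were taken from sample titles; each table was tied to its sample by the repository record, and the letters that name the tables' columns are not explained by the labels, so the group of each table rests on that record alone. The tests ran under R 4.3.3 in edgeR 4.0.16, with TMM scaling, filterByExpr (11828 genes kept), 1 group-means model over all 8 libraries, a robust quasi-likelihood fit and two-sided contrasts. The SE is the absolute log2 fold change over the square root of F. A group with 0 counts was set to a floor of 3 counts over the group, and the resulting bound covers counting error only. Alternatives were RLE scaling, library totals, omission of mitochondrial-genome genes, DESeq2 1.42.0, limma-voom (limma 3.58.1), 2 other filters, fits on the compared groups, leaving out each library and a block for replicate number; the procedure was tested on simulated counts.

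The members and lists were chosen with earlier results of these data known. All 8 members are named; from each pathway list up to 4 other genes with the smallest p for both subsets against resident are named, with Soat1; the other genes enter the counts, and some pathway genes are not reported here; profiles most alike are the 5 highest correlations.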

Additional observations from a re-analysis of the deposited data

Results flagged for a closer look

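Among the resident libraries, 4 of the 29 genes examined had 1 library far from the other 3 by Dixon's ratio on CPM. The cutoff flags about 5% of groups of normally distributed values, which these CPM need not follow. The share over all genes was not computed, so 4 of 29 is not read as an excess. Idi1 was at 23.2 CPM in resident replicate 3, Insig1 at 12.4 CPM in resident replicate 4, Abca1 at 24.7 CPM in resident replicate 6 and Nr1h3 at 17.7 CPM in resident replicate 3. Each was the highest of its group, and these libraries set the upper end of the resident ranges of those genes.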

How the results depend on the processing

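No member was called under any alternative except Stard4, which DESeq2 called in SiglecFhi/CD101+ against resident and against Siglec-Fint/CD101- (1 member each). The number of genes called in SiglecFhi/CD101+ against resident (3) was 7 with library totals alone, 940 with DESeq2, 370 without a filter, 1 with only the groups compared, and 1 to 133 with 1 library left out, the highest counts coming without a Siglec-Fint/CD101- library (131 and 133). In Siglec-Fint/CD101- against resident (7) it was 3 with library totals alone, 737 with DESeq2, 2 with limma-voom, 136 without a filter, 1 with 20 counts in 2 libraries, 0 with only the groups compared, and 0 to 9 with 1 library left out. Between the subsets (1) it was 1309 with DESeq2, 0 with limma-voom, 85 without a filter, 0 with only the groups compared, 4 with the replicate block and 0 to 2 with 1 library left out. For both subsets (3) it was 8 with RLE, 773 with library totals alone, 1039 with DESeq2, 1 with limma-voom, 201 without a filter and 2 to 6 with 1 library left out. No label ties the same-numbered subset libraries to each other beyond the number. Over genes, the deviations of replicate 1 from the mean of its subset correlated at 0.0066 between the subsets. With 2 libraries per subset, replicate 2 only mirrors replicate 1, so this value cannot decide whether same-numbered libraries are paired. The replicate block called 0 of the 4 members it tested.

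Of 795 refitted log2 fold changes of named genes, 25 changed sign and 763 kept their sign and side of the threshold. Signs changed in SiglecFhi/CD101+ against resident for Insig1 (0.30 with RLE and with DESeq2; -0.49 to 0.35 with 1 library left out), Srebf2 (0.11 with RLE and with DESeq2; -3.73 to 0.47) and Abca1 (1.47 with limma-voom; -1.60 to 2.29), and in Siglec-Fint/CD101- against resident for Stard4 (-0.12 with library totals alone; -0.14 to 1.72). Between the subsets, ranges with 1 library left out were -2.27 to 7.26 for Idi1, -2.12 to 2.08 for Srebf2 and -0.10 to 8.52 for Insig1; the highest values of Idi1 and Insig1 are fits against a group at 0. For both subsets against resident, Apoe gave -0.21 with library totals alone and -0.31 to 0.74 with 1 library left out, Npc2 -0.48 with library totals alone, Soat1 -0.79 with library totals alone, -0.058 with limma-voom, -0.025 without a filter and -0.92 to 0.55, and Mbtps2 -3.58 to 0.65; the cause was not tested. Where leaving out a library leaves 1 in a subset, that library is assumed to vary like the other groups. Hmgcs1 between the subsets has no value without SiglecFhi/CD101+ replicate 1, as both groups are then at 0.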

Other observations

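A few pathway genes outside the naming rule, chosen after their values were seen, had at least 1 well counted library in each subset. Nsdhl, a sterol dehydrogenase of the late synthesis route, was at 0 and 70.1 CPM in SiglecFhi/CD101+ libraries, 1.45 and 96.2 CPM in Siglec-Fint/CD101- libraries and 0.17, 9.20, 8.97 and 2.19 CPM in resident libraries, so replicate 2 of each subset exceeded all other libraries (both subsets against resident 3.00 ± 1.53, edgeR adjusted p = 0.250). Msmo1, a sterol methyl oxidase and SREBP-2 target, was at 43.5 and 3.66 CPM, 24.7 and 22.4 CPM, and 14.0 to 39.0 CPM in the same order of groups (0.05 ± 0.93, edgeR adjusted p = 0.983). Nr1h2, LXR beta, was at 226 CPM in SiglecFhi/CD101+ replicate 1 and 47.6 CPM in replicate 2, at 21.8 and 48.4 CPM in Siglec-Fint/CD101- and at 21.7 to 89.6 CPM in resident libraries (0.23 ± 0.66, edgeR adjusted p = 0.869).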
